A study of Mus musculus with 2 samples.

Results

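The guanylate-binding proteins are a family of large GTPases, and 9 of their genes, *Gbp2*, *Gbp2b*, *Gbp3*, *Gbp4*, *Gbp5*, *Gbp6*, *Gbp7*, *Gbp8* and *Gbp9*, were followed here by symbol among the 32285 genes counted in single cells from MC38 tumors. All 9 were found in both count matrices. MC38 is a mouse colon cancer cell line, and 500000 of its cells were injected under the skin of female C57BL/6 mice 6 to 8 weeks old. 1 library came from tumors of wild-type hosts (*Lmo7*+/+) and 1 from tumors of hosts that lack LMO7, a LIM domain and actin-associated protein, in all tissues (*Lmo7*-/-). The implanted MC38 cells carried wild-type *Lmo7* in both, the suspensions were lysed for red cells and sorted for live cells, and the number of mice behind each library is not given in the sources used here.

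Guanylate-binding proteins are among the genes that interferon gamma raises most. Interferon gamma acts through its receptor and JAK kinases on gamma-activated (GAS) sites, and through IRF1, which binds interferon response elements. The proteins assemble on the vacuoles and membranes of intracellular pathogens together with the smaller immunity-related GTPases such as IRGM1, and they help to activate the AIM2, caspase-1 and caspase-11 inflammasomes. Macrophages are their best studied site, but most nucleated cells that see interferon gamma make them, tumor cells included.

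The genes lie in 2 clusters of the mouse genome (GRCm38, GENCODE release M21). On chromosome 3, *Gbp5*, *Gbp7*, *Gbp3*, *Gbp2b* and *Gbp2* follow each other on the plus strand from 142493978 to 142638008, within 144 kb. On chromosome 5, *Gbp8*, *Gbp9*, *Gbp4* and *Gbp6* lie on the minus strand from 105014150 to 105293698, within 280 kb (279.5), and the gene models of *Gbp4*, *Gbp8* and *Gbp9* overlap on that strand. The letters of the chromosome 3 promoters are shown because the family is known through its response to interferon gamma. RefSeq (GRCm38.p6) gave promoter sequence for 5 of the 9 members, and the 200 bases before the transcription start are printed 5′ to 3′ on the plus strand. Capitals mark matches, on either strand, to an IRF motif (GAAA, any 2 bases, GAAA) or to the GAS motif TTCNNNGAA.
Gbp5, chr3:142496734-142496933: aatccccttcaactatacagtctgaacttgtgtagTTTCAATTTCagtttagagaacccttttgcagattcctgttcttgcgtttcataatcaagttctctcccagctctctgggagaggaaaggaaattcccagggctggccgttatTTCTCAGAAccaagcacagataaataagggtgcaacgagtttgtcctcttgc
Gbp7, chr3:142530136-142530335: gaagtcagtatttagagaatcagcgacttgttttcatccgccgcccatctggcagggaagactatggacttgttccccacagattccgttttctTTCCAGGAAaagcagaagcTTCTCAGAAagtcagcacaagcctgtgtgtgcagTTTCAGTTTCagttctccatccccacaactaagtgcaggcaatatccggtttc
Gbp3, chr3:142559844-142560043: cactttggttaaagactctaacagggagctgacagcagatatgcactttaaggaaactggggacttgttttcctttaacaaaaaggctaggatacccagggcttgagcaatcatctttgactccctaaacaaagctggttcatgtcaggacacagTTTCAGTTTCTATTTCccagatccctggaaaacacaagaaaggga
Gbp2b, chr3:142594647-142594846: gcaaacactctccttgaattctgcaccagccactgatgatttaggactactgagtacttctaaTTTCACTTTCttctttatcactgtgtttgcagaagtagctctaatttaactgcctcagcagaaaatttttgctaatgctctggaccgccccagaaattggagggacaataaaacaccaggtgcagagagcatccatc
Gbp2, chr3:142620463-142620662: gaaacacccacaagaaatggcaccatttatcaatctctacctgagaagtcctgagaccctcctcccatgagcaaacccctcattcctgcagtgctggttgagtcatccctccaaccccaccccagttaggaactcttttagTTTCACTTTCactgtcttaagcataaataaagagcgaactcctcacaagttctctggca

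Each of these 5 windows held at least 1 IRF match, always read on the minus strand, and *Gbp3* held 2 that overlap. Over the 32851 mouse promoter windows of the same length 2.27% held this motif. A GAS match was found once before *Gbp5* and at 2 positions before *Gbp7*, against 5.49% of all windows, and both motifs together were found in 0.204% of them. The distance of the IRF match from the start differed: its last base lay 44 bases before the start of *Gbp7*, 50 before *Gbp2* and 30 before *Gbp3*, but 128 before *Gbp2b* and 156 before *Gbp5*. A further start listed for *Gbp3* had no match, and the GENCODE start of *Gbp5* lies 2956 bases from the RefSeq start used here. A match is a row of letters and was not tested as a binding site.

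The *Lmo7*+/+ library had 16208 droplets and 98582479 UMIs, and 15163 droplets and 80648345 UMIs came from *Lmo7*-/- hosts. A UMI stands for 1 captured RNA molecule. After filtering, 13542 and 11860 cells remained with a median of 4535.5 and 4304.5 UMIs, and 279 cell barcodes were shared by the libraries. *Lmo7* itself checked the labels only weakly. In the tumor cell class, which is wild type in both, it had 1098 and 631 UMIs (19.4 and 15.6 UMIs per 1000000 of the class, CPM). In macrophages it had 44 UMIs from *Lmo7*+/+ and 34 from *Lmo7*-/- hosts, a log2 ratio of -0.37 whose 95% counting interval ran from -1.06 to 0.31. In endothelial cells it had 18 and 11 UMIs (50.4 and 34.8 CPM, ratio -0.53, -1.76 to 0.63), so in the library labelled *Lmo7*-/- its level was higher in these host cells than in the tumor class. The genotype therefore rests on the label, and each direction below is that of the library labelled *Lmo7*-/- against the library labelled *Lmo7*+/+. With 1 library per genotype nothing was tested, all intervals cover counting error only, and a difference between the libraries cannot be told apart from a difference between hosts, tumors or preparations.

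Cells were put into classes by marker genes that include no *Gbp* gene and no interferon-induced list. The macrophage class held 3973 *Lmo7*+/+ and 4531 *Lmo7*-/- cells, the monocyte class 429 and 304, and cells with both marker sets, called intermediate, numbered 237 and 188. There were 167 and 124 dendritic cells, 312 and 483 CD8 T cells, 80 and 59 endothelial cells, and 105 and 82 fibroblasts. The tumor class, 5827 and 4428 cells, was defined by little or no RNA of immune and endothelial markers. Cells that passed the fibroblast gate were left out, but fibroblast marker RNA below that gate was allowed. Its epithelial markers were close to absent, since the 13 listed genes summed to 132 and 121 CPM and 3 of them reached 5 CPM, while 7 of 8 fibroblast markers did, with sums of 2025 and 2045 CPM. The keratins and *Epcam* differed between the libraries: *Krt8* had 174 and 9 UMIs, *Krt18* 136 and 1, *Krt19* 298 and 17 (5.26 and 0.420 CPM, ratio -3.64) and *Epcam* 235 and 77 (4.15 and 1.90 CPM, ratio -1.12). The name of this class therefore rests on the gate. No class was given to 16.2% of the *Lmo7*+/+ and 12.3% of the *Lmo7*-/- cells. The other T cell and NK classes had 33 to 81 cells per library.

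The family was read most strongly in endothelial cells and monocytes and least in tumor cells (*Lmo7*+/+) or CD8 T cells (*Lmo7*-/-), and its summed level was higher in the *Lmo7*-/- library in 7 of 8 classes, of which the endothelial class turned under a stricter gate. Levels are UMIs of the 9 genes as CPM of the class, with an exact Poisson 95% interval. In the *Lmo7*+/+ library the summed level was 1321 in endothelial cells (1205 to 1446), 1049.5 in monocytes (994 to 1107), 830.3 in intermediate cells (778 to 886) and 706 in macrophages (695 to 717). Below these came fibroblasts at 497 (445 to 554), dendritic cells at 494 (444 to 547), CD8 T cells at 381 (345 to 419) and tumor cells at 355 (349.8 to 359.6). Fibroblasts and dendritic cells overlapped in their intervals, as did CD8 T cells and tumor cells, and the other neighbors in this order did not.

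In the *Lmo7*-/- library the tumor class moved from the last place to the fifth. Endothelial cells stood at 1909.6 (1760.3 to 2068) and monocytes at 1683 (1593 to 1777), which overlap. The only other neighbors whose intervals overlap were fibroblasts and dendritic cells. Intermediate cells stood at 1223 (1145 to 1305) and macrophages at 1117 (1103 to 1131). Tumor cells followed at 779 (770.4 to 788), above fibroblasts at 609.8 (543 to 682), dendritic cells at 589 (527 to 657) and CD8 T cells at 363 (333 to 394). As a log2 ratio of *Lmo7*-/- over *Lmo7*+/+ CPM the family differed by 1.14 in tumor cells (1.11 to 1.16), 0.68 in monocytes (0.57 to 0.79), 0.66 in macrophages (0.63 to 0.69), 0.56 in intermediate cells (0.43 to 0.69) and 0.53 in endothelial cells (0.36 to 0.71). The ratio was smaller in fibroblasts (0.29, 0.07 to 0.52) and dendritic cells (0.25, 0.04 to 0.47), and in CD8 T cells it was -0.07 with an interval from -0.26 to 0.12, and slightly above 0 with TMM scaling (0.01), with classes from clusters (0.08) and as a mean over cells (0.03).

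Some markers differed between the libraries in 2 of these classes, tumor cells and monocytes. In the tumor class these are epithelial genes of its own marker list. Both ratios were read again without the cells that carried such markers, a choice made after the data were seen. Without the tumor cells that had a UMI of *Epcam*, *Krt8*, *Krt18* or *Krt19*, 97.1% and 97.7% of the class remained at 357 and 779 CPM, and the family ratio was 1.13 (1.10 to 1.15). In monocytes the neutrophil markers summed to 310 and 94.1 CPM, with 4 of 6 genes at 5 CPM or more and 1 at 0, and the endothelial markers to 109 and 186 CPM, with 4 of 8 genes at 5 CPM or more and 2 at 0. Without the monocytes that had a UMI of either list, 266 and 187 cells remained at 946 and 1601 CPM, and the ratio was 0.76 (0.61 to 0.91), with *Gbp2* at 1.06 and *Gbp4* at 0.10.

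**Figure D1:**
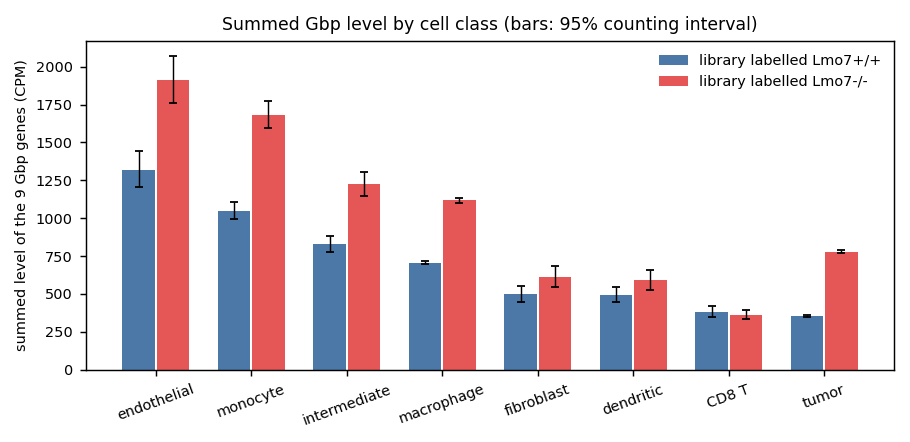
Summed level of the 9 Gbp genes (vertical axis, CPM of the class) in 8 cell classes, with a blue bar for the library labelled Lmo7+/+ and a red bar for the library labelled Lmo7-/-, and error bars for the exact Poisson 95% counting interval. The red bar is above the blue bar in 7 classes, from 355 against 779 in tumor cells to 1321 against 1909.6 in endothelial cells, and the CD8 T cell bars overlap at 381 and 363.

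The endothelial value depended on few cells and on their purity. The 5 endothelial cells richest in family UMIs held 34.3% of them with the *Lmo7*+/+ label and 44.9% with the *Lmo7*-/- label. When cells with more than 1 UMI of the markers of another lineage were left out, 59 and 36 cells remained at 1443 and 1271 CPM, and the log2 ratio was -0.18 (-0.44 to 0.07). The 21 and 23 cells that were left out had 1032 and 2488 CPM. Fibroblast markers summed to 565 and 1214 CPM in the whole endothelial class, with 7 of 8 genes at 5 CPM or more, and their part in the result was not tested. With each cell given equal weight the endothelial ratio was 0.22, and the endothelial calls below depend on the gate.

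*Gbp2* and *Gbp7* gave the 2 largest shares of the family's UMIs in all 8 classes and both libraries. *Gbp2*, which attacks pathogen vacuoles and is strongly raised by interferon gamma, gave 48.1% of the family's UMIs in *Lmo7*+/+ tumor cells and 53.4% in *Lmo7*-/- tumor cells, 51.3% and 58.0% in monocytes, and 25.9% and 28.0% in macrophages. *Gbp7*, which is known for promoting oxidative defense in phagocytes, gave 33.2% and 25.4% in macrophages and 38.9% and 37.5% in CD8 T cells, where *Gbp2* gave 15.4% and 17.9%. The monocyte, fibroblast and tumor classes were therefore led by *Gbp2* and the CD8 T cell class by *Gbp7* in both libraries, and macrophages by *Gbp7* in the *Lmo7*+/+ library and by *Gbp2* in the *Lmo7*-/- library. Each UMI counts a molecule, so levels of different genes are set side by side with no length correction, while capture may still differ between transcripts.

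*Gbp2* was read in every class. In the *Lmo7*+/+ library it stood at 539 CPM in monocytes and 462 in endothelial cells, whose intervals overlap, then at 332 in intermediate cells, 227 in fibroblasts, 222 in dendritic cells, 183 in macrophages, 170.4 in tumor cells and 58.6 in CD8 T cells. In the *Lmo7*-/- library it stood at 977 in monocytes, 654 in endothelial cells, 477 in intermediate cells, 416 in tumor cells, 321 in fibroblasts, 313 in macrophages, 254 in dendritic cells and 64.8 in CD8 T cells. CD8 T cells were lowest in both. The log2 ratio was largest in tumor cells at 1.29 (1.25 to 1.32), followed by monocytes at 0.86 (0.71 to 1.01) and macrophages at 0.78 (0.72 to 0.83). In CD8 T cells it was 0.15 (-0.32 to 0.62), an interval that covers 0.

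*Gbp7* varied less between the libraries than *Gbp2* in macrophages and tumor cells. Macrophages had 234 and 283 CPM, a log2 ratio of 0.27 (0.22 to 0.33), the smallest of the 9 members in that class. Tumor cells had 85.0 and 163 CPM, a ratio of 0.94 (0.89 to 1.00), and monocytes 195 and 267 CPM, a ratio of 0.45 (0.18 to 0.72). Endothelial cells were highest at 286 and 468 CPM, and CD8 T cells had 148 and 136.

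*Gbp2b*, once named *Gbp1* in the mouse, was the member most tied to macrophages. Of its UMIs in classified cells, 95.6% of 1310 from *Lmo7*+/+ and 96.7% of 3666 from *Lmo7*-/- hosts came from the macrophage class. Its level there was 54.5 CPM (51.5 to 57.6) with the *Lmo7*+/+ label and 155 CPM (149 to 159.7) with the *Lmo7*-/- label, a log2 ratio of 1.504 (1.41 to 1.598) and the largest of the family in macrophages. Only 0.457% of the 12703 genes compared there had a larger ratio. Intermediate cells had 26.1 and 97.8 CPM, a ratio of 1.91 (1.27 to 2.58), and monocytes had 5.48 and 15.5 CPM from 7 and 12 UMIs. The tumor class had 14 and 24 UMIs among more than 10000 cells (10255), or 0.247 and 0.594 CPM, and its ratio of 1.26 (0.26 to 2.33) became 0.25 when cells with other lineages' markers were left out.

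*Gbp8* also had most of its UMIs, 80.3% and 80.9%, in the macrophage class, which is large, but its level was not particular to macrophages. Intermediate cells had 30.6 and 46.9 CPM and monocytes 26.6 and 37.4 CPM, with intervals that overlap those of macrophages in both libraries. *Gbp8* had 33.4 and 51.9 CPM in macrophages, a ratio of 0.64 (0.51 to 0.77). In tumor cells it had 1.22 and 4.11 CPM, and its ratio of 1.75 (1.34 to 2.18) there was the largest of the family. That ratio rests on 69 and 166 UMIs. At a common depth of 1500 UMIs per cell 0.200% and 0.646% of tumor cells had a *Gbp8* UMI. That is under the share of the macrophage gene *C1qa* in the same cells, 2.38% and 1.74%. *C1qa* stood at 1866 and 2080 CPM in macrophages, so a share under its own cannot tell background from low expression. *Gbp8* and *C1qa* were not in the proportion they had in macrophages. *Gbp8* had 17.9 and 24.95 UMIs per 1000 *C1qa* UMIs in macrophages and 104 and 443 in tumor cells. *Gbp2b* had 29.2 and 74.3 in macrophages and 21.1 and 64.0 in tumor cells, and the source of the tumor UMIs was not tested. The tumor gate leaves out cells rich in macrophage markers, *C1qa* among them, which bears on these proportions. For *Gbp8* dendritic cells went the other way with 23 and 10 UMIs, 31.2 and 17.9 CPM, although the interval of the ratio of -0.80 ran from -2.04 to 0.33.

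*Gbp4*, a family member reported to restrain IRF7, was highest in endothelial cells at 190.4 and 304 CPM. In macrophages it had 46.8 and 96.4 CPM, a ratio of 1.04 (0.94 to 1.15), second there to *Gbp2b*. In tumor cells it had 15.6 and 48.3 CPM, a ratio of 1.63 (1.51 to 1.74), second there to *Gbp8*. CD8 T cells had 52.2 and 49.1 CPM.

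*Gbp5*, a member linked to the NLRP3 inflammasome, was also highest in endothelial cells at 126 and 123 CPM and in monocytes at 68.9 and 96.7 CPM. Macrophages had 30.9 and 49.1 CPM (ratio 0.67, 0.53 to 0.81) and tumor cells 9.51 and 21.1 CPM (ratio 1.15, 0.99 to 1.31). It was among the lowest members in CD8 T cells, with 8 and 19 UMIs or 7.32 and 12.4 CPM.

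The remaining members were *Gbp3*, *Gbp6* and *Gbp9*. *Gbp3* was the third most abundant of the family over all kept cells, with 4956 and 5982 UMIs. It had 68.8 and 90.1 CPM in macrophages (ratio 0.39, 0.29 to 0.48) and 44.4 and 73.1 CPM in tumor cells (ratio 0.72, 0.64 to 0.80). *Gbp6* had 30.7 and 44.8 CPM in macrophages (0.54, 0.40 to 0.68) and 14.9 and 33.7 CPM in tumor cells (1.18, 1.05 to 1.30). *Gbp6* is uncertain as a single gene, because 77.8% of the 50-base words in the last 500 bases of its transcript are shared with *Gbp10*, a near copy that had 29 and 67 UMIs in all classified and unclassified cells. *Gbp9* had 24.2 and 33.8 CPM in macrophages (0.48, 0.33 to 0.64) and 13.3 and 18.7 CPM in tumor cells (0.49, 0.34 to 0.64), the only member whose ratio in tumor cells was under 0.5. The last 500 bases of *Gbp4* shared 6.43% of their words with *Gbp6*, and the other members shared none. Over the whole longest transcript, *Gbp8* shared 16.8%, *Gbp4* 10.6% and *Gbp9* 7.69% of their words with other family genes. *Gbp2*, *Gbp2b*, *Gbp3*, *Gbp5* and *Gbp7* shared at most 4.79%. The end of the transcript that was read is not known, so the last 500 bases alone do not clear these members.

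**Figure D2:**
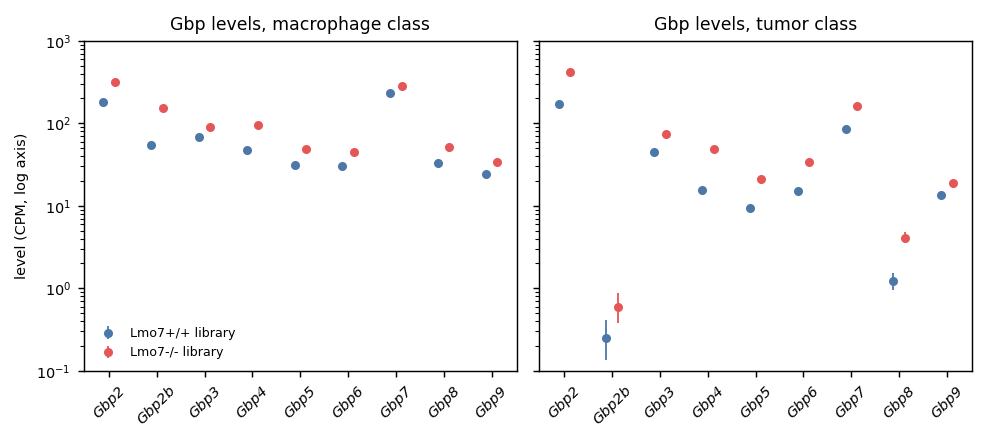
Level of each of the 9 Gbp genes (vertical log axis, CPM) in the macrophage class at the left and the tumor class at the right, with blue points for the Lmo7+/+ library, red points for the Lmo7-/- library and bars for the 95% counting interval. The red point is above the blue point for all 9 genes in both classes, and Gbp2b lies at 54.5 and 155 CPM in macrophages but at 0.247 and 0.594 CPM in tumor cells.

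To set the members against other genes of the same cells, every gene with at least 20 UMIs over both libraries of a class was compared, and a gene was called when its log2 ratio was at least 0.5 or at most -0.5. In tumor cells 8 of 9 members were called higher in the *Lmo7*-/- library and none lower, where 4.45% of all 14075 genes were called higher and 6.67% lower. The 8 include *Gbp2b* and *Gbp8*, whose shares of tumor cells lie under that of *C1qa*, and *Gbp5* and *Gbp6*, whose shares do so with the *Lmo7*+/+ label alone (1.56% and 2.17%). Per 1000 *C1qa* UMIs, *Gbp5* had 16.5 UMIs in *Lmo7*+/+ macrophages and 812 in *Lmo7*+/+ tumor cells, and *Gbp6* had 16.5 and 1273, where the tumor gate limits *C1qa*. In macrophages 6 of 9 were called higher (*Gbp2*, *Gbp2b*, *Gbp4*, *Gbp5*, *Gbp6* and *Gbp8*) and none lower, against 5.05% higher and 7.1% lower among 12703 genes. The median ratio of the members was 1.18 in tumor cells beside -0.04 over all genes, and 0.64 in macrophages beside -0.09. All members were above 0 in both classes. With TMM scaling, which moves all ratios of a class by at most 0.0971, 9 members were called in tumor cells and 7 in macrophages. That scaling turned the split over all macrophage genes from 642 higher and 902 lower to 848 and 602. Over all tumor genes it turned the split from 626 and 939 to 728 and 827.

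In intermediate cells 6 of 9 members were called higher and 0 lower, against 8.57% and 14.6% of genes, with a median of 0.62 beside -0.05. In monocytes 8 members had enough UMIs, and 3 of them (*Gbp2*, *Gbp4* and *Gbp9*) were called higher and 0 lower, against 8.7% and 14.4% of genes. The monocyte median of 0.49 lay just under the fold, and with edgeR's TMM scaling in place of total UMIs 5 of 8 were called. With that scaling 758 of the 7795 monocyte genes compared were called higher, in place of 678. *Gbp4* at 0.50 sat on the threshold there.

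The remaining classes held fewer members and wider intervals. Of 6 dendritic cell members 2 were called higher (*Gbp3* and *Gbp4*) and 1 lower (*Gbp8*), against 9.59% and 15.5% of genes. In fibroblasts 2 of 6 were called higher (*Gbp2* and *Gbp6*) and 0 lower, against 11.3% and 20.1%. *Gbp2* at 0.50 sat on the threshold there, as it did in endothelial cells, and the interval of *Gbp6* in fibroblasts (0.66, -0.20 to 1.53) covers 0. In endothelial cells 4 of 7 were called higher (*Gbp2*, *Gbp3*, *Gbp4* and *Gbp7*) and 0 lower, against 15.5% and 17.7%, but the ratios of *Gbp2* and *Gbp4* turned to -0.35 and -0.45 in the cells free of other lineages' markers.

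CD8 T cells had a call in each direction. 1 of 8 members was called higher there (*Gbp5*, 0.76, -0.49 to 2.16) and 1 lower (*Gbp3*, -0.60, -1.49 to 0.27), against 8.05% and 12.8% of genes, and both intervals cover 0. The median of 0.03 lay beside -0.05 over all genes. TMM scaling turned the split over all CD8 T cell genes from 696 higher and 1104 lower to 931 and 888, and that over fibroblast genes from 764 and 1359 to 1016 and 1031. The interval of the family ratio, -0.26 to 0.12, does not reach the 0.63 at the lower end of the macrophage interval, but it overlaps that of the dendritic cells, 0.04 to 0.47. The members called in CD8 T and dendritic cells all had fewer than 50 UMIs over both libraries. A minimum of 50 UMIs therefore leaves them out and does not check their calls.

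**Figure D3:**
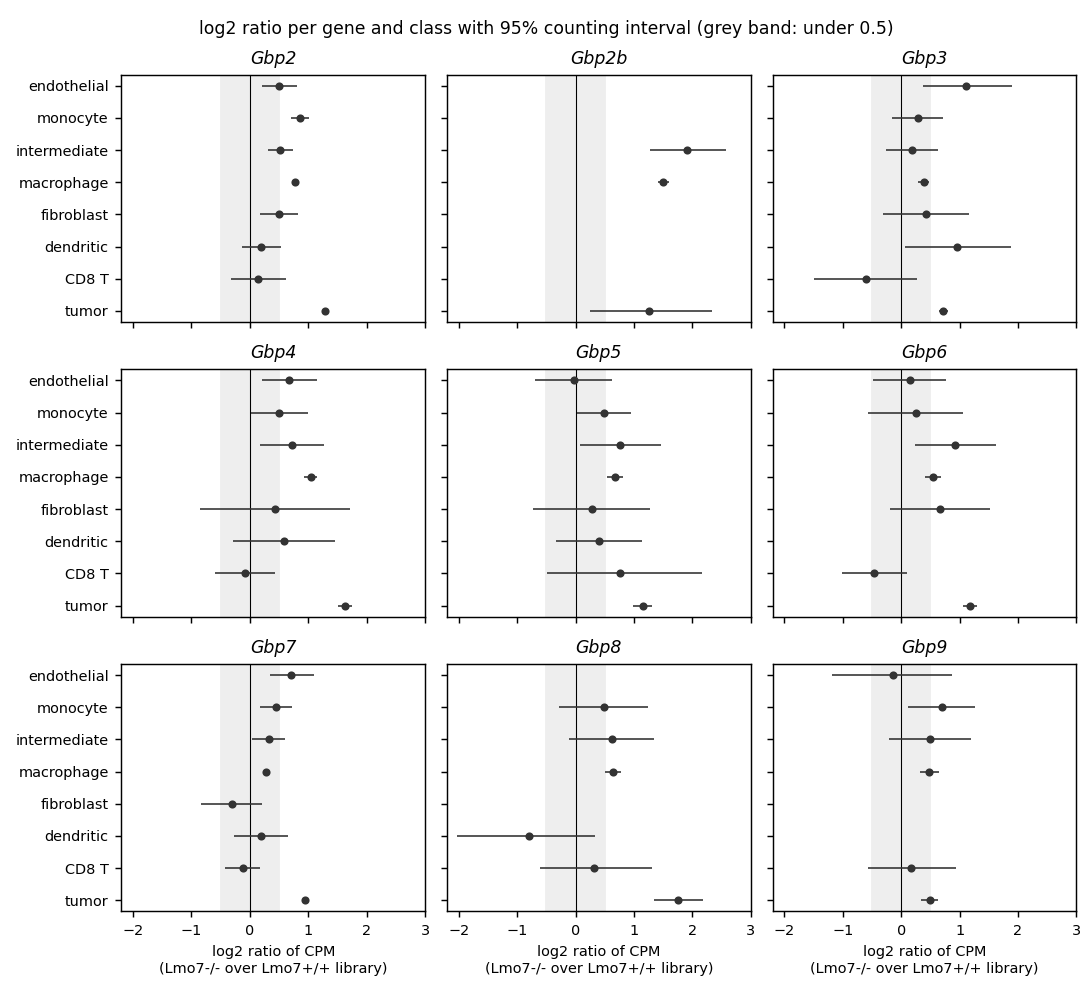
Log2 ratio of CPM in the Lmo7-/- library over the Lmo7+/+ library (horizontal axis) for each Gbp gene in 8 cell classes, with points for ratios of genes with at least 20 UMIs, bars for the 95% counting interval and a grey band for ratios under 0.5 in size. Points for tumor cells and macrophages lie right of 0 in every panel, from 0.27 for Gbp7 in macrophages to 1.75 for Gbp8 in tumor cells, and CD8 T cell points lie on both sides of 0.

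The share of cells with a family UMI was read at a common depth of 1500 UMIs per cell. The share of macrophages with at least 1 family UMI was 56.3% (54.6% to 57.9%) with the *Lmo7*+/+ label and 71.7% (70.3% to 73.0%) with the *Lmo7*-/- label, and 82.6% and 89.5% without the common depth. In tumor cells the share was 31.98% (30.7% to 33.3%) and 50.8% (49.2% to 52.4%), and 65.4% and 78.4% without it, at median depths of 7006 and 6356.5 UMIs. In monocytes it was 57.0% and 74.2% (71.6% and 81.6% without it). In CD8 T cells, with median depths of 2651 and 2484, it was 37.5% (31.8% to 43.7%) and 38.5% (33.5% to 43.4%), or 55.8% and 57.3% without it. RNA free in the suspension can also give such UMIs. *C1qa*, a macrophage gene that tumor and T cells should lack, was read in 2.38% and 1.74% of tumor cells and in 5.56% and 3.84% of CD8 T cells at this depth, below the family's shares there. The gates of both classes leave out cells rich in macrophage markers, *C1qa* among them, so its share is limited by the gates. It also cannot measure RNA set free by cells other than macrophages, so it does not bound the background of the family. Intervals are exact binomial, and 350 and 441 macrophages, 570 and 534 tumor cells, and 46 and 92 CD8 T cells were too shallow and left out.

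*Gbp2b* was read in 7.10% (6.28% to 7.98%) of *Lmo7*+/+ macrophages and 19.0% (17.8% to 20.2%) of *Lmo7*-/- macrophages, and without the common depth in 18.4% and 39.3%, against 0.0629% and 0.132% of tumor cells at the common depth. The tumor values lie far under the share of *C1qa* in the same cells. *C1qa* is far more abundant than *Gbp2b* in macrophages, and whether the tumor values are background was not tested. Macrophages, monocytes and tumor cells of the *Lmo7*-/- library also held more different members. UMIs of 3 or more members were found in 7.05% and 14.9% of macrophages, 11.3% and 20.5% of monocytes and 2.30% and 7.05% of tumor cells. In CD8 T cells the shares were 2.22% and 1.93%, and in fibroblasts 5.95% and 3.56%. The 5 richest macrophages held 1.71% and 1.83% of the class's family UMIs, and the 5 richest tumor cells 3.05% and 2.73%, so neither sum rested on a handful of cells.

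**Figure D4:**
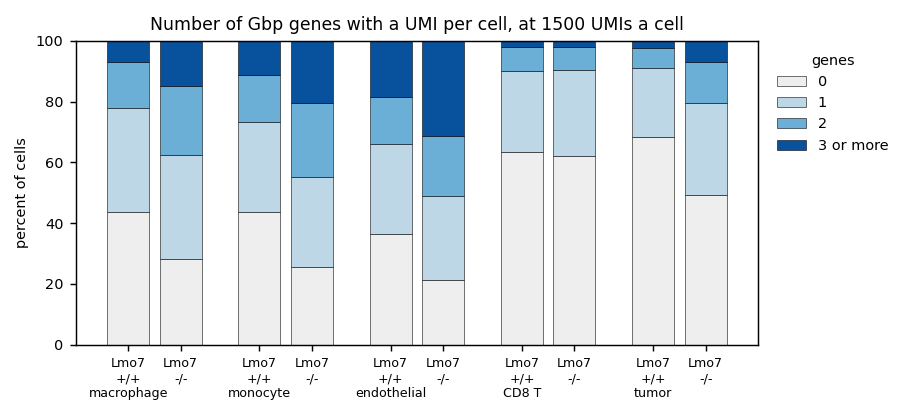
Percent of cells (vertical axis) with UMIs of 0, 1, 2 or 3 or more of the 9 Gbp genes after each cell was thinned to 1500 UMIs, as stacked bars for both libraries in 5 cell classes, averaged over 20 draws. Macrophages with 3 or more genes make up 7.05% of the Lmo7+/+ and 14.9% of the Lmo7-/- bar, and the CD8 T cell bars have 2.22% and 1.93%.

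Macrophages differ among themselves, and the family was compared between the 25% of cells highest for a gene list, cut over both libraries together, and the rest. Such a cut gives a range of cells and not a type. The cuts stood at 754 CPM for the type I interferon list, 46397 for MHC class II, 1124 for *Ccl8*, 1015 for cycling and 227 for *Arg1*. The *Arg1* cut is low for cells with medians of 5124 and 4434 UMIs, so the side of a cell depends on its depth. In cells high for type I interferon genes (*Ifit1*, *Ifit2*, *Ifit3*, *Rsad2*, *Cmpk2* and *Isg15*) the family stood at 1048 CPM against 607 in the rest (*Lmo7*+/+) and at 1478 against 1004 (*Lmo7*-/-), log2 differences of 0.79 and 0.56. It was also higher in cells high for MHC class II genes (0.47 and 0.26) and for the *Ccl8* list (0.42 and 0.22). It was lower in cells high for the *Arg1* list (-0.31 and -0.22) and slightly lower in cycling cells (-0.14 and -0.09).

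For the summed family the difference between the libraries was present on both sides of each cut, but not clearly for every member. In MHC class II-high cells the ratios of *Gbp3* (0.03, -0.19 to 0.25), *Gbp6* (0.09, -0.22 to 0.41), *Gbp8* (0.21, -0.07 to 0.49) and *Gbp9* (0.32, -0.05 to 0.71) had intervals that cover 0. Those of the other members did not. The intervals of *Gbp3* in *Ccl8*-high cells and of *Gbp6* in type I interferon-high cells covered 0 too. Among macrophages high for MHC class II, of which there were 575 from *Lmo7*+/+ and 1551 from *Lmo7*-/- hosts, the family ratio was 0.43 (937 and 1258 CPM), and among the rest it was 0.64 (674 and 1049.8 CPM). It was 0.50 in type I interferon-high cells and 0.73 in the rest, 0.74 in *Arg1*-high cells and 0.65 in the rest, 0.49 in *Ccl8*-high cells and 0.68 in the rest, and 0.69 in cycling cells and 0.64 in the rest. *Gbp2b* differed more than the sum by MHC class II and *Arg1* genes and less by type I interferon genes (0.65 and 0.29). It was 1.18 and 0.70 higher on the log2 scale in MHC class II-high cells, with 107 against 47.3 CPM (*Lmo7*+/+) and 209 against 129 CPM (*Lmo7*-/-), and in *Arg1*-high cells its log2 difference was -0.93 and -0.74.

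Tumor cells showed a wider gap by type I interferon genes, with a cut at 187 CPM, low enough that the side of a cell depends on its depth. Those high for the list had 661 CPM against 269.8 in the rest (*Lmo7*+/+) and 1339 against 597 (*Lmo7*-/-), log2 differences of 1.29 and 1.16. The ratio between the libraries was 1.02 in the high cells and 1.15 in the rest, and 1.19 in cycling tumor cells against 1.12 in the others.

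The pathway around the family was described by 5 gene lists. Partner GTPases had the medians closest to the family's in macrophages and tumor cells: all 5 that were measured (*Irgm1*, *Irgm2*, *Igtp*, *Tgtp1* and *Tgtp2*) were called higher in the *Lmo7*-/- library in macrophages, with a median ratio of 0.84, and in tumor cells, with a median of 1.18. *Irgm1*, which guards self membranes from these GTPases, had 98.3 and 148 CPM in macrophages and 101 and 207 CPM in tumor cells. *Igtp* had 45.9 and 82.2 CPM in macrophages and 58.5 and 139 CPM in tumor cells. *Tgtp1* and *Tgtp2* are near-identical copies, and their separate values are uncertain.

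The receptor and signal genes had a median of 0.05 in macrophages and 0.16 in tumor cells, and none was called lower in either class. Called higher in macrophages were, among others, *Irf1* (169 and 306 CPM, 0.86, 0.80 to 0.91) and *Socs1*, a feedback inhibitor of JAK kinases (34.8 and 53.7 CPM, 0.62, 0.49 to 0.75). The receptor genes *Ifngr1* and *Ifngr2* had ratios of -0.03 and -0.07. In tumor cells *Irf8* was called higher (13.5 and 25.1 CPM, 0.90), while *Irf1* had 418 and 579.6 CPM, a ratio of 0.47.

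Other interferon gamma targets were called higher for 3 of 9 genes in macrophages (median 0.33) and 7 of 9 in tumor cells (median 0.98), with 0 lower in either. The chemokine gene *Cxcl9* had 722 and 1502 CPM in macrophages and 64.8 and 196 CPM in tumor cells. *Cd274*, which encodes PD-L1, had 130.2 and 267 CPM in macrophages and had a ratio of 1.34 (1.21 to 1.47) in tumor cells. The tryptophan-degrading enzyme gene *Ido1* had 7 and 47 UMIs in macrophages and 212 and 537 in tumor cells. The immunoproteasome gene *Psmb8* stayed under the fold in both (0.17 and 0.37).

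The inflammasome list had medians below the family's in macrophages and tumor cells. In macrophages 0 of 8 genes were called in either direction and the median was 0.08. *Casp1* had 69.7 and 85.0 CPM (0.29, 0.19 to 0.38), *Nlrp3* 821 and 823 CPM (0.00, -0.03 to 0.03) and *Il1b* 3090.0 and 3496 CPM (0.18, 0.16 to 0.19). In tumor cells 4 of 8 were called lower (*Aim2*, *Nlrp3*, *Il1b* and *Il18*) with a median of -0.41, at levels of 0.841 to 24.1 CPM, and with TMM scaling 2 were. The macrophage marker list summed to 108 and 91.7 CPM in this class, with 4 of 11 genes at 5 CPM or more, and its part in the result was not tested.

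Type I interferon genes also had medians below the family's in macrophages, tumor cells and CD8 T cells. In macrophages 0 of 8 were called higher and 1 lower (*Cmpk2*, 17.6 and 11.5 CPM), with a median of -0.01, and in tumor cells 0 were called in either direction, with a median of 0.22. In CD8 T cells 7 of 8 were called lower with a median of -1.31, while the family's median was 0.03. *Rsad2*, which encodes an antiviral radical enzyme, had 141 and 12 UMIs there (129 and 7.85 CPM) and *Isg15* 176 and 119 (161 and 77.9 CPM). With CD8 T cells taken from clusters the median of that list was -0.35. In dendritic cells 5 of 7 were called lower, with a median of -0.58. *Ifng* itself had 113 and 206 UMIs in CD8 T cells (103 and 135 CPM, 0.38, 0.04 to 0.73), and macrophages had 0 and 3.

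**Figure D5:**
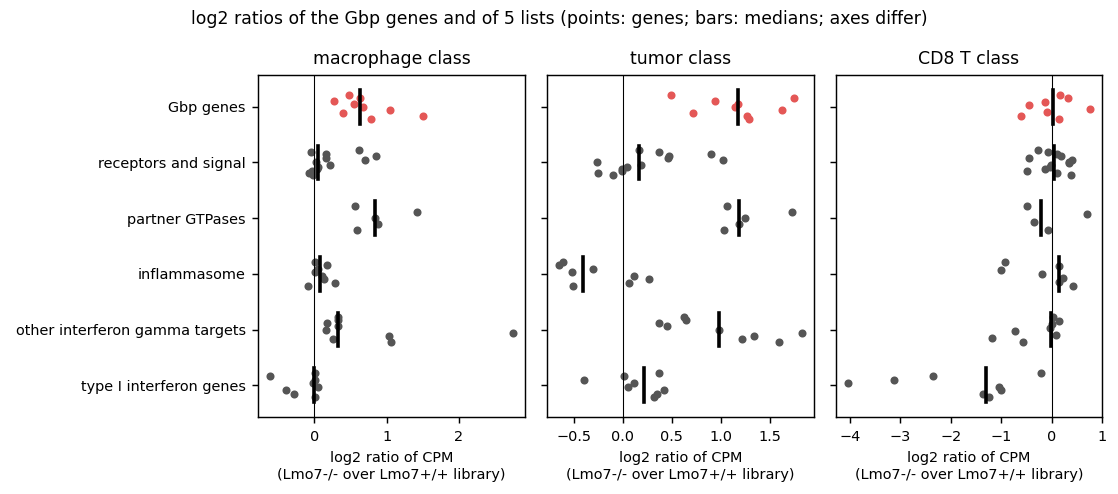
Log2 ratio of CPM in the Lmo7-/- library over the Lmo7+/+ library (horizontal axes, which differ in range) for the Gbp genes in red and the genes of 5 pathway lists in grey, with a black bar at each median, in the macrophage, tumor and CD8 T cell classes. In macrophages the medians are 0.64 for the Gbp genes, 0.84 for partner GTPases and -0.01 for type I interferon genes, and in CD8 T cells the type I list lies at -1.31 beside 0.03 for the Gbp genes.

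The genes next to the 2 clusters had smaller ratios than the family in macrophages and tumor cells. Within 300 kb lie 8 other protein-coding genes in the files, and 0 of 8 were called in macrophages, with a median of -0.12 and a range from -0.36 to 0.31. In tumor cells 1 of 7 was called higher, with a median of 0.24. *Gtf2b*, a general transcription factor gene that neighbors the chromosome 3 cluster, had 56.2 and 60.2 CPM in macrophages (0.10) and 47.3 and 55.9 CPM in tumor cells (0.24).

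Over the 16 sums of 8 classes and 2 libraries, the genes most like the family in log2(CPM + 1) were picked among 6777 genes with a mean of at least 20 CPM, as a description over points that share libraries and depth. *Ifi47*, another immunity-related GTPase, was closest to the summed family (Pearson r = 0.91), followed by its member *Gbp7* (0.88), *Zbp1* (0.88), *Cflar* (0.88) and *Gbp2* (0.87). The members did not all follow 1 pattern. *Gbp2b* was closest to the macrophage genes *C1qa* (0.93), *Mrc1* (0.93), *C1qc* (0.92) and *C1qb* (0.92), which help to define the macrophage class, and it had r = 0.28 with *Gbp2*. *Gbp3* was closest to *Cxcl10* (0.97), *Gbp4* and *Gbp7* to each other (0.92), *Gbp2* to *Ifitm3* (0.91) and *Irgm1* (0.90), *Gbp5* to *Clic4* (0.94), *Gbp6* to *Cemip2* (0.94), *Gbp8* to *Lrrc8d* (0.96) and *Gbp9* to *Fhod1* (0.91). Between members r ran from -0.12 (*Gbp6* and *Gbp8*) to 0.92.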

How the data were processed

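Live cells of MC38 tumors were profiled with the 10x Genomics platform, as 1 *Lmo7*+/+ and 1 *Lmo7*-/- library pooled for sequencing. The authors deposited raw UMI counts per gene and cell. The submitters' notes name Cell Ranger 2.1.1 and mm10, while the file headers give software version 3.0.0, and the end of the transcript that was read is not given in the sources used here. Kept cells had 500 or more genes, 1000 or more UMIs and no more than 15% mitochondrial UMIs, and doublets, 2.90% and 2.60% by Scrublet (scanpy 1.11.5), were kept too.

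Classes were gated on summed marker CPM, with the cuts set after the data were seen. Counts were summed per class and library. Ratios carry exact binomial-split intervals, 0 against more than 3 counts is a bound, and no ratio is given where both are at 3 or fewer. Shares at 1500 UMIs per cell are the exact expected shares over all draws, and members per cell are means of 20 draws. The named genes are the members, *Lmo7*, the pathway lists and, for each member and the sum, the 5 genes of highest correlation. *Gtf2b*, *C1qa* and *Gbp10* were added after their values were seen. *Gm12250* and *Mx1* of the lists were not analysed here, and 1 gene of the receptor and signal list is counted in its medians but not reported here. The members and lists were chosen with earlier results of these data known. Alternatives were other cell filters, Louvain clusters, doublets left out, a strict gate and TMM. They also took in library size without the 10 most abundant genes, per-cell means, count minimums of 10 and 50, and other thinning. A further 2, added after the data were seen, leave out tumor cells with epithelial marker UMIs and monocytes with neutrophil or endothelial marker UMIs. No test between genotypes was made, since cells are not replicates. The gates and the ratios with their intervals were run on simulated data, and no other step was. The simulated cells were drawn from the profiles of the gated classes, so they could not check where the gates were set. TMM factors came from edgeR 4.0.16 in R 4.3.3, and all else from Python 3.11.15 with scipy 1.17.1, pandas 2.3.3, numpy 2.4.6, matplotlib 3.10.9 and igraph 0.11.9. Gene positions came from GENCODE M21, which lists 32235 of the 32285 gene identifiers.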

Additional observations from a re-analysis of the deposited data

Results flagged for a closer look

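2 members had ratios past the fold in opposite directions in different classes, and the difference between the classes was not tested. *Gbp3* had a log2 ratio of -0.60 in CD8 T cells and was called higher in 3 other classes, up to 1.11 in endothelial cells. *Gbp8* had -0.80 in dendritic cells and was called higher in 3 other classes, up to 1.75 in tumor cells. Its share of tumor cells lies under that of the macrophage gene *C1qa*, and the source of its UMIs there was not tested. Both negative ratios rest on 23 to 25 UMIs in the *Lmo7*+/+ library and have intervals that cover 0. They are 1 of 8 members compared in CD8 T cells and 1 of 6 in dendritic cells. Both are near the share of all genes called lower there, 12.8% and 15.5%.

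Signals outside the 8 classes and the 9 members were also read. *Gbp10*, which is no member here, had 29 UMIs from *Lmo7*+/+ and 67 from *Lmo7*-/- hosts, and its last 500 bases share 88.9% of their 50-base words with *Gbp6*. In cells that no gate placed in a class, the family stood at 468 CPM (*Lmo7*+/+) and 873 CPM (*Lmo7*-/-), a log2 ratio of 0.90 (0.84 to 0.95).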

How the results depend on the processing

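The family's direction held under each alternative run in macrophages, monocytes, intermediate cells, dendritic cells, fibroblasts and tumor cells, and turned in endothelial and CD8 T cells. The macrophage ratio of 0.66 was 0.63 with Louvain clusters, without doublets, with the strict gate and as a mean over cells, and 0.75 with TMM. The tumor ratio of 1.14 was 1.09 with the strict cell filter, 1.17 with TMM and 1.10 as a mean over cells. The monocyte ratio of 0.68 was 0.52 with the strict cell filter and 0.80 as a mean over cells, and the dendritic ratio of 0.25 was 0.49 with Louvain clusters. In endothelial cells the strict gate turned the family to -0.18, *Gbp2* to -0.35 and *Gbp4* to -0.45, and the mean over cells gave 0.22. The strict gate left 36 endothelial *Lmo7*-/- cells. Otherwise the cause of these shifts was not tested.

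Leaving out tumor cells with *Epcam* or keratin UMIs and monocytes with neutrophil or endothelial marker UMIs, both added after the data were seen, kept the family within its interval (1.13 and 0.76). Of the member and family ratios, 65 of 70 kept their sign under the strict gate, 57 of 60 with Louvain clusters and 66 of 70 with the strict cell filter. No cluster was named intermediate, so that class has no value from clusters. The list medians in endothelial cells moved with Louvain clusters, to 0.13 for partner GTPases and -0.46 for type I interferon genes. With a minimum of 50 counts 396 genes were called higher in macrophages in place of 642 and 382 in tumor cells in place of 626, with 551 called lower in tumor cells in place of 939. The calls also moved by over 1.5 times in the smaller classes: higher calls were 268, 309, 201, 296, 292 and 303 in intermediate cells, monocytes, dendritic, CD8 T, endothelial cells and fibroblasts, and lower calls 453, 496, 366, 539, 277 and 518. With a minimum of 10, higher calls were 1008, 1029, 1045, 1367 and 1192 in the same classes without CD8 T cells, and lower calls 1575, 1629 and 2155 in dendritic cells, endothelial cells and fibroblasts. With TMM 4 fibroblast members were called higher in place of 2, while 1016 of all fibroblast genes were called higher in place of 764. No paired analysis was possible because each genotype has 1 library. Depth limits the T cell, NK, dendritic, endothelial and fibroblast classes most, where a member often had fewer than 50 UMIs over both libraries.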

Other observations

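Small lymphocyte classes held the family too, with 33 to 81 cells per library and wide intervals. Regulatory T cells had a summed level of 766 CPM (617 to 941) in the *Lmo7*+/+ library and 934 CPM (778 to 1111) in the *Lmo7*-/- library, a log2 ratio of 0.29 (-0.11 to 0.69). Both values lie above those of CD8 T cells, 381 and 363 CPM. Other CD4 T cells had 683 and 563 CPM (-0.28, -0.73 to 0.18), T cells of neither kind 639 and 639 CPM (0.00, -0.40 to 0.40) and NK cells 451 and 530.3 CPM (0.24, -0.42 to 0.88). *Gbp7* led the NK class with 30 of 48 and 15 of 37 family UMIs. *Gbp2b* had 0 UMIs in NK and regulatory T cells of both libraries, which in regulatory T cells at 1500 UMIs per cell allows a share of up to 9.68% and 9.38% of cells with a UMI (3 of 31 and 32 cells, with exact binomial upper ends of 11.2% and 10.9%).

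*Irf1*, a transcription factor gene raised by interferon gamma, had a ratio of 0.19 (-0.10 to 0.49) in CD8 T cells, against 0.86 (0.80 to 0.91) in macrophages. *Cxcl9* had 84.2 and 56.9 CPM and *Cxcl10* 83.3 and 36.7 CPM in CD8 T cells. *Il1b*, a myeloid gene, was also lower there (396 and 209 CPM), and the macrophage marker list summed to 440.3 and 421 CPM with 9 of 11 genes at 5 CPM or more. The part of myeloid RNA in these values was not tested.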
